A study of Mus musculus with 18 samples.

Results

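Isoliensinine added to hydrogen peroxide was set against hydrogen peroxide alone in MOVAS cells, a line of mouse vascular smooth muscle from the aorta, by polyA RNA sequencing. The comparison takes the 3 libraries of H_I against the 3 libraries of H2O2, which is 6 of the 18 libraries of the series. Its members were taken by title, with earlier results of these data known. The treatment label of H_I names only isoliensinine, and that these cells also had hydrogen peroxide is read from a title built like those of the other isoliensinine arms. The H2O2 libraries carry hydrogen peroxide as their inducer of senescence. The other groups, used here only beside this comparison, are D_I and Dox (isoliensinine with doxorubicin, and doxorubicin alone) and B_I and Blank (isoliensinine alone, and no treatment), with 3 libraries each. All groups share the cell line, and doses and durations are unknown from the labels.

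Isoliensinine is a plant alkaloid of the lotus embryo. Sublethal peroxide damages DNA and can stop the cell cycle for good, with induction of the p53 target Cdkn1a, enlarged lysosomes and secretion of cytokines and proteases. Natural killer (NK) cells, which the study's title names, kill targets that display stress ligands for their activating receptors and spare targets rich in MHC class I. Whether isoliensinine alters the transcripts of peroxide-treated smooth muscle cells, ligands for NK cells among them, is the question this comparison bears on.

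The H_I libraries held 12859609 to 15740546 counts and the H2O2 libraries 13382308 to 15621807 counts. Levels below are CPM, counts scaled to a common library size by trimmed means of M-values (TMM). H2O2 replicate 3 stood apart from its group, with a chi-square per degree of freedom of 28 and 36.9 against the other H2O2 libraries, which differed from each other by 9.38, while the H_I pairs gave 7.33 to 11.5. H_I replicate 1 and H2O2 replicate 3 also held the most colon and liver transcripts of their groups. Results are therefore given with and without that pair of libraries. Each was the highest of its group for these transcripts, so leaving the pair out also narrows their spread within groups. Calls without the pair are thus no independent check of genes that run with colon and liver transcripts. Of the smooth muscle markers, Acta2 was abundant, but Tagln, the gene of the contractile protein SM22, had only 3 to 7 counts in H_I libraries and 2 to 8 counts in H2O2 libraries, and Myocd, the smooth muscle master regulator, 5 to 9 and 0 to 5 counts. The counts assigned to Tagln were thus near 0 in both groups. Whether all of its reads were counted was not tested. Blank replicate 4 and B_I replicate 3 stood apart in Acta2, with 4514 and 3875 CPM against 806 to 1178 CPM in the other Blank and B_I libraries.

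edgeR and limma called no gene between isoliensinine plus peroxide and peroxide alone at an adjusted p under 0.05, while DESeq2 called 67, most of them at low levels. By edgeR's quasi-likelihood test 0 of 13375 genes tested (0%) were called, and the smallest Benjamini-Hochberg adjusted p was 0.234. At an unadjusted p under 0.05 there were 915 genes (6.84%), of which 580 were higher in H_I (4.34%) and 335 lower (2.5%). The groups did not overlap for 1622 genes (12.1%), with H_I above H2O2 for 937 (7.01%) and below for 685 (5.12%). Without H_I replicate 1 and H2O2 replicate 3, 0 of 13539 genes were called and 559 (4.13%) had an unadjusted p under 0.05, 395 of them higher (2.92%) and 164 lower (1.21%). DESeq2 called 67 of 15549 genes (0.431%), of which 60 were higher (0.386%) and 7 lower (0.045%). It called 20 higher (0.129%) and 1 lower (0.00645%) of 15500 genes, 21 in all (0.135%), without that pair of libraries, and 10 genes were called both times. limma on log2 FPKM called 0 genes, with 883 at an unadjusted p under 0.05 with a pseudocount of 1 and 836 with a pseudocount of 0.1.

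The precision of the comparison bounds what could be seen. The median standard error of a log2 fold change was 0.231, and the median half-width of its 95% interval was 0.482. For 8865 genes (66.3%) the whole interval lay within 1 log2 unit of no difference on either side, so a 2-fold change lay outside it. The median log2 fold change over all genes was 0.02, and 0.01 without the pair of libraries.

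Of the gene lists, those of colon epithelium and liver had the largest median differences. Single genes of other lists reached similar values. The highest log2 fold change was 6.47 among bone-like and calcification genes, 6.10 among colon genes and 2.66 among liver genes. The 6.47 is that of Bmp2, with 13, 9 and 7 counts in H_I and 0 counts in every H2O2 library, so its size is poorly determined. The median of the bone-like and calcification list was -0.11. Among smooth muscle markers it was 2.43. Of 40 colon genes tested, all 40 stood higher in H_I, 31 at an unadjusted p under 0.05 (background 4.34%) and 0 after adjustment by edgeR, with a median log2 fold change of 2.04. Of 27 liver genes tested, all 27 stood higher, 22 at an unadjusted p under 0.05, with a median of 1.54. The gene lists, these 2 among them, were chosen with earlier results of these data known. Counts of list members set against a background share, here and below, are therefore descriptive and no independent test. Summed over the colon list, the level was 1337, 449 and 555 CPM in the H_I libraries, against 131, 98.8 and 352 CPM in the H2O2 libraries. Summed over the liver list, it was 685, 265 and 239.8 CPM in H_I, against 118, 90.8 and 253 CPM in H2O2. H_I replicate 1 was the highest of the 18 libraries for both lists, and H2O2 replicates 1 and 2 were among the lowest. Without H_I replicate 1 and H2O2 replicate 3 the medians were 2.25 for the colon list and 1.42 for the liver list, with 30 and 18 genes at an unadjusted p under 0.05. The same lists had medians of -0.07 and 0.22 in D_I against Dox, and 0.12 and -0.10 in B_I against Blank.

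**Figure D1:**
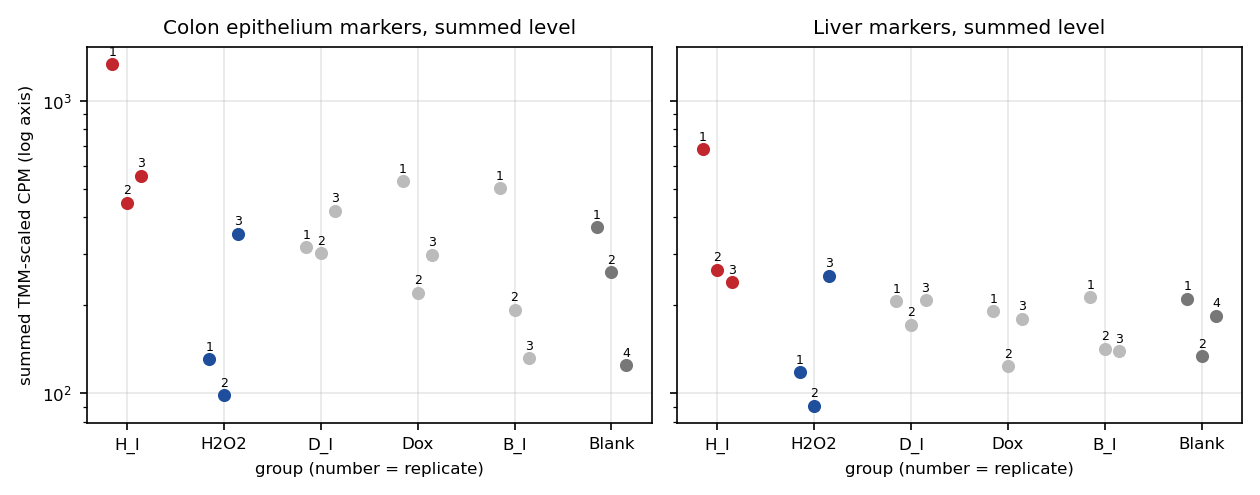
Summed TMM-scaled CPM (log axis) of 40 colon epithelium markers (left) and 28 liver markers (right) in each of the 18 libraries, by group, with the replicate number above each point. H_I replicate 1 reaches 1337 CPM for the colon list and 685 CPM for the liver list, while H2O2 replicates 1 and 2 lie at 131 and 98.8 CPM for the colon list.

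H_I replicate 1 was also the highest of the 6 libraries in single genes of the lists. Muc2, the gel-forming mucin of goblet cells, had 169, 49.7 and 60.4 CPM in H_I, against 9.87, 6.39 and 44.3 CPM in H2O2. Car1, a carbonic anhydrase of colon cells, had 105, 33.7 and 41.6 CPM in H_I, against 6.13, 7.13 and 20.5 CPM in H2O2. Alb, the main plasma protein made by liver, had 229.8, 83.1 and 80.3 CPM in H_I, against 37.2, 22.01 and 75.8 CPM in H2O2. The groups did not overlap for these 3 genes, and H2O2 replicate 3 came close to H_I replicates 2 and 3 for Muc2 and Alb. Their log2 fold changes were 2.21, 2.43 and 1.55 for Muc2, Car1 and Alb, with edgeR adjusted p of 0.586, 0.321 and 0.362. Over the 6 libraries DESeq2 called Car1 of the 3 (adjusted p 0.0418), and no longer without the pair of libraries (adjusted p 0.0743). Without the pair DESeq2 called Alb instead (log2 fold change 1.44, adjusted p 0.00011). Of its 21 calls there, 9 were on the colon or liver list. The pair was picked by these same transcripts and its removal narrows their spread, so such calls are no independent support. The untreated cells held these transcripts too, since Muc2 had 43.0, 27.3 and 10.7 CPM in Blank.

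Most of the 60 genes that DESeq2 called higher were highest in H_I replicate 1. It was the highest of the 6 libraries for 56 of them, and at least 2 times the mean of the other H_I libraries for 42. The H2O2 mean was below 5 CPM for 57, and 9 had 0 counts in every H2O2 library. Of the 60, 5 were on the colon list and 4 on the liver list, and the rest on neither. Several of these are known from gut or liver, such as Hnf4a, a hepatic and intestinal transcription factor (log2 fold change 2.83 by DESeq2, adjusted p 0.0118), Cftr, the epithelial chloride channel (5.48, adjusted p 0.0335), and Myo1a, a brush border myosin (3.18, adjusted p 0.015). These 3 were chosen after their values were seen. Without the pair of libraries DESeq2 still called Hnf4a (adjusted p 0.0486) and Myo1a (0.0151) but not Cftr (0.794). Others among the 60 are known from inflammation, such as Nfkbiz, a regulator of NF-kB (2.18, adjusted p 0.0335), and Casp1, the inflammatory caspase (3.09, adjusted p 0.0419), also chosen after their values were seen. Neither was called without the pair of libraries (adjusted p 0.51 and 0.442). RNA of another tissue and a low expression of these genes in MOVAS cells cannot be told apart here. In bulk samples, fewer cells of a type and less RNA per cell cannot be told apart either.

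Markers of other cell types were checked beside them. The macrophage list summed to 88.2, 50.3 and 70.9 CPM in H_I, against 59.7, 36.8 and 76.6 CPM in H2O2, with 0 of 11 tested genes at an unadjusted p under 0.05. The endothelial list summed to 49.1, 31.0 and 41.6 CPM in H_I, against 30.0, 28.1 and 26.7 CPM in H2O2, with Eng and Cdh5 higher at an unadjusted p under 0.05 of 12 tested. The fibroblast list lay at 435 to 501 CPM in H_I and 451 to 528 CPM in H2O2, with Dpt, the matrix protein dermatopontin, higher at an unadjusted p under 0.05 of 10 tested. Dpt had 2.80, 1.42 and 3.31 CPM in H_I, against 0.212, 0 and 0.621 CPM in H2O2. DESeq2 called it (log2 fold change 3.22, adjusted p 0.0427) and edgeR did not (3.19, adjusted p 0.36), and without the pair of libraries DESeq2 did not call it either (adjusted p 0.0751). Of 12 NK and T lymphocyte markers only 1 had enough counts to be tested. Ncr1, the gene of an NK receptor, and Klrb1c had 0 counts in all 6 libraries.

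Several contractile genes ran with the colon and liver transcripts. Myh11, smooth muscle myosin heavy chain, which the gut wall also expresses, had 31.6, 12.2 and 10.6 CPM in H_I, against 2.19, 1.30 and 6.76 CPM in H2O2. Its log2 fold change was 2.43 (SE 0.60, edgeR adjusted p 0.28), and 2.70 without the pair of libraries (edgeR adjusted p 0.318). DESeq2 did not call Myh11 over the 6 libraries (adjusted p 0.0664) and called it without the pair (2.69, adjusted p 0.00681), as did edgeR when Blank replicate 4 and B_I replicate 3 were left out as well (adjusted p 0.000242). Actg2, the enteric smooth muscle actin, had 13.4, 6.91 and 4.12 CPM in H_I, against 0.917, 2.29 and 4.19 CPM in H2O2. Here the groups overlapped, and H_I replicate 1 was again the highest. Of the 20 smooth muscle markers tested, 5 (Cnn1, Myh11, Mylk, Synpo2 and Actg2) were higher at an unadjusted p under 0.05 (background 4.34%) and 0 lower, and only 2 of 21 without the pair of libraries (background 2.92%). The list's median was -0.07. Its summed level was 6834, 7115 and 6347 CPM in H_I and 7037, 6891 and 8231 CPM in H2O2. Acta2, the most used marker of the contractile state, had 2439, 2300 and 1863 CPM in H_I, against 2375, 2173 and 3003 CPM in H2O2, a log2 fold change of -0.19 with a 95% interval of -1.46 to 1.07. The spread behind that interval is estimated over all 18 libraries. It takes in Blank replicate 4 and B_I replicate 3, at 4514 and 3875 CPM, which are outside this comparison. Whether RNA of other tissues contributed to the values of Myh11 and Actg2 was not tested.

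**Figure D2:**
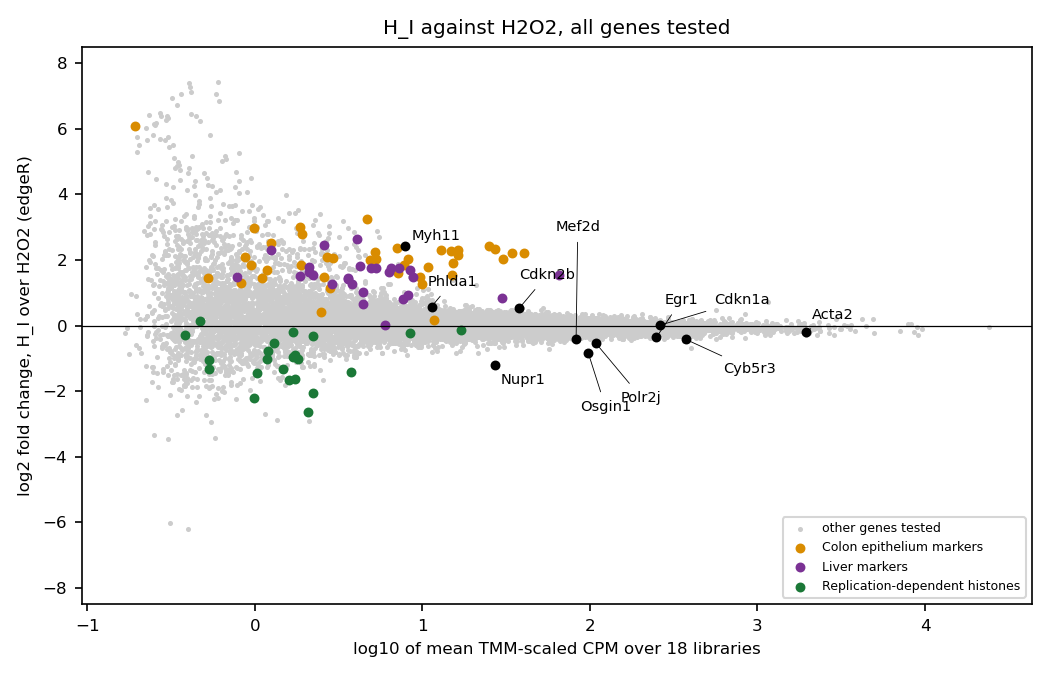
Log2 fold change of H_I over H2O2 (edgeR) for the 13375 genes tested, against the log10 of the mean TMM-scaled CPM over the 18 libraries, with marker lists in colour and some genes named in the text in black. Colon (40 genes) and liver (27 genes) markers lie above 0, 21 of 22 histone genes lie below it, and abundant genes such as Cdkn1a and Acta2 lie close to 0.

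Among genes that passed the rule described next, log2 fold changes ran from -0.83 to 0.58. Genes that it leaves out could differ more, such as Dmbt1 of the colon list (2.21 by DESeq2). With no gene called by edgeR, a rule chosen after the values were seen picked genes with an unadjusted p under 0.01, groups that did not overlap, a mean of 5 FPKM or more in whichever group stood higher, the same sign without the pair of libraries, no place on the colon or liver list, and H_I replicate 1 below 2 times the mean of the other H_I libraries. It gave 9 higher and 37 lower genes. The conditions on H_I replicate 1 and on the colon and liver lists take out higher genes and have no counterpart for lower ones, so this split is not comparable with the 4.34% higher and 2.5% lower over all genes. Osgin1, an oxidative stress growth inhibitor and a target of the antioxidant regulator NRF2 (chromosome 8, 120160863 to 120172995 in the deposited table), had 84.2, 72.1 and 72.0 CPM in H_I, against 120.8, 96.9 and 187 CPM in H2O2. Every H_I library lay below every H2O2 library, and the untreated cells held 59.5, 54.2 and 84.2 CPM. The log2 fold change was -0.83 (SE 0.19, edgeR adjusted p 0.234, DESeq2 adjusted p 0.0238), and -0.61 without the pair of libraries, where the DESeq2 call was lost (adjusted p 0.412). With Blank replicate 4 and B_I replicate 3 left out as well, a setting chosen after seeing the data, edgeR called Osgin1 (-0.62, adjusted p 0.00562). Osgin1 was among the genes higher in H2O2 than in Blank (log2 fold change 1.03, adjusted p 0.00784 by edgeR), a contrast that calls 191 genes (1.43%) and shares the H2O2 libraries.

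Mef2d, a transcription factor of muscle and nerve (chromosome 3, 88049679 to 88079393), had 69.7, 73.6 and 67.1 CPM in H_I, against 98.6, 83.7 and 99.0 CPM in H2O2, and 71.3, 77.2 and 71.9 CPM in Blank. H_I and H2O2 did not overlap, and 2 of the 3 H_I libraries lay below the lowest Blank library. Its log2 fold change was -0.42 (95% interval -0.62 to -0.22, edgeR adjusted p 0.234, DESeq2 adjusted p 0.015), and -0.39 without the pair of libraries, where DESeq2 no longer called it (adjusted p 0.248). Cyb5r3, a reductase of cytochrome b5, had 322, 329 and 336 CPM in H_I, against 442, 384 and 499 CPM in H2O2, a log2 fold change of -0.42 (edgeR adjusted p 0.28, DESeq2 adjusted p 0.0427). Without the pair of libraries Cyb5r3 stood at -0.33 and DESeq2 did not call it (adjusted p 0.763). The untreated level of Cyb5r3 was 436, 418 and 412 CPM, so H_I lay below both. Polr2j, a small subunit of RNA polymerase II, had 101.5, 76.8 and 79.8 CPM in H_I, against 129, 110 and 137 CPM in H2O2. The Polr2j log2 fold change was -0.55 (edgeR adjusted p 0.269), and -0.63 without the pair of libraries.

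The higher genes of that rule were led by Phlda1, Polr2b and Cdkn2b. Phlda1, a pleckstrin-homology protein linked to growth factor signalling and cell death, had 12.1, 12.5 and 11.3 CPM in H_I, against 7.97, 8.55 and 7.53 CPM in H2O2 and 11.6, 12.3 and 12.2 CPM in Blank. The log2 fold change of Phlda1 was 0.58 (SE 0.17, edgeR adjusted p 0.35). Cdkn2b, the cyclin-dependent kinase inhibitor p15, had 42.0, 45.4 and 42.9 CPM in H_I, against 28.9, 36.1 and 25.3 CPM in H2O2, with Blank at 32.9, 34.8 and 49.8 CPM. For Cdkn2b it was 0.53 (SE 0.15, edgeR adjusted p 0.36), and 0.42 without the pair of libraries. Polr2b, the second largest subunit of RNA polymerase II, stood higher by 0.53, and by 0.32 without the pair of libraries, while its partner Polr2j stood lower. Several of the lower genes had their distance mostly from H2O2 replicate 3. Rcor2, a corepressor subunit, had 25.5, 28.9 and 29.8 CPM in H_I, against 32.2, 31.7 and 69.5 CPM in H2O2, and its log2 fold change of -0.66 became -0.14 without the pair of libraries.

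**Figure D3:**
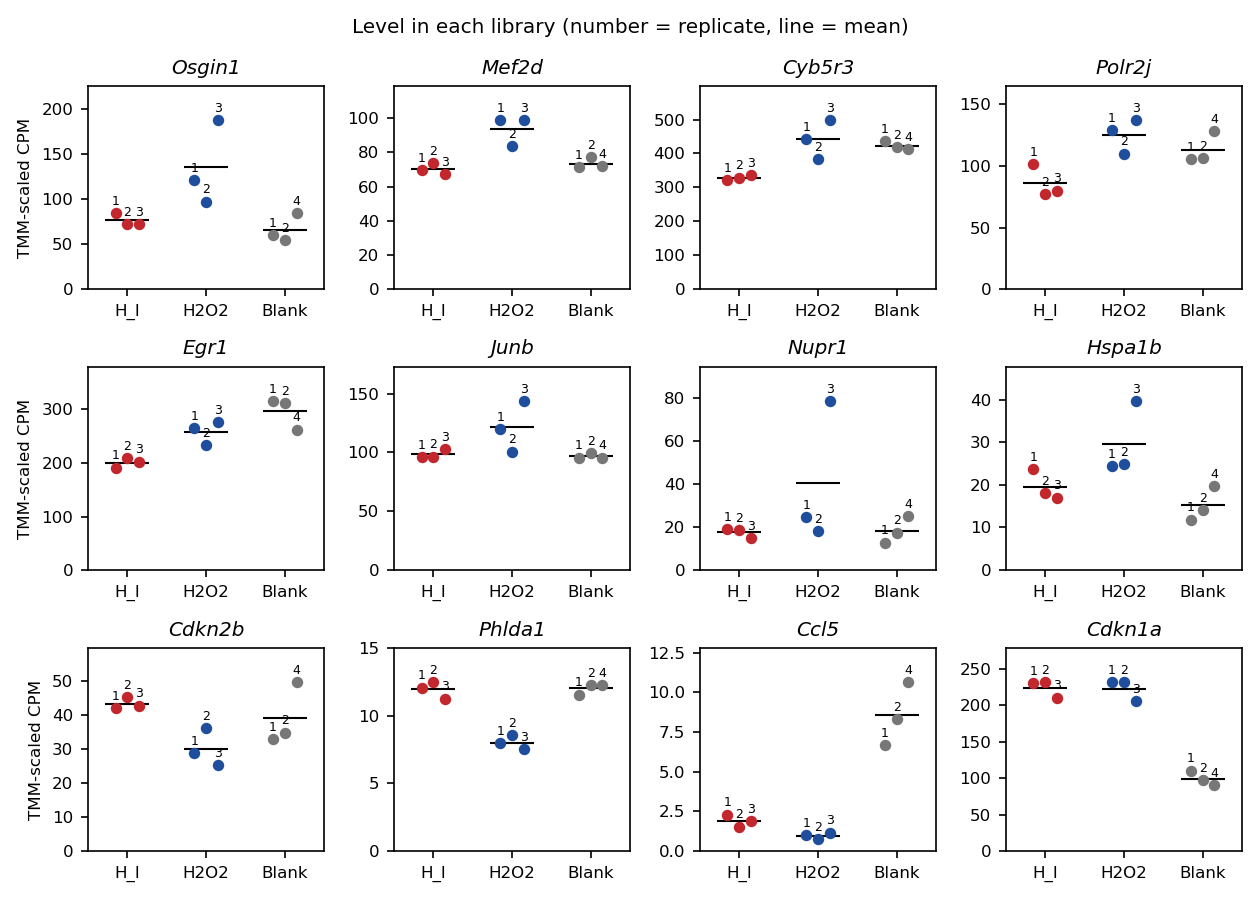
TMM-scaled CPM (linear axes from 0) of 12 genes in each H_I, H2O2 and Blank library, with the replicate number above each point and the group mean as a line. Osgin1, Mef2d, Cyb5r3 and Polr2j lie lower in H_I than in H2O2 without overlap, Nupr1 is set apart by H2O2 replicate 3 at 78.8 CPM, and Cdkn1a lies at 205 to 232 CPM in both groups, above Blank.

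Neither edgeR nor DESeq2 called a gene of the senescence list between the groups. Cdkn1a, the inhibitor p21 that holds senescent cells in arrest (chromosome 17, 29309950 to 29319701), had 229.7, 232 and 210.1 CPM in H_I, against 231, 231 and 205 CPM in H2O2. Both groups lay far above the 110.3, 97.2 and 90.5 CPM of Blank. The log2 fold change of H_I over H2O2 was 0.01 with a 95% interval of -0.25 to 0.26, and -0.08 without the pair of libraries. Cdkn2a, the locus of p16 and ARF, had 130.2, 136 and 122.7 CPM in H_I, against 117, 123.7 and 96.5 CPM in H2O2, a log2 fold change of 0.20 (95% interval -0.12 to 0.53). Mki67, a proliferation antigen, stood at -0.12 (-0.59 to 0.35), Lmnb1, the lamin lost in many senescent cells, at 0.16 (-0.14 to 0.46), and Glb1, the lysosomal enzyme behind the senescence stain, at 0.13 (-0.06 to 0.33). Of these genes only Cdkn1a stood higher in H2O2 than in Blank. From Blank to H2O2, Cdkn2a stood at -0.24 (edgeR adjusted p 0.548) and Glb1 at -0.45 (0.0179). Mki67 and Lmnb1 stood at -0.72 and -0.33 there (edgeR adjusted p 0.123 and 0.304). Of 20 cell-cycle inhibitors and senescence genes, 2 (Hmgb1 and Cdkn2b) were higher at an unadjusted p under 0.05 (background 4.34%) and 0 lower, and 1 was higher without the pair of libraries (background 2.92%). Of 30 p53 targets 0 were higher and 1 lower (background 2.5%), namely Bbc3, the death activator PUMA, with 11.4, 12.5 and 11.1 CPM in H_I, against 16.7, 14.1 and 16.4 CPM in H2O2. Among 35 mitosis genes, 0 had an unadjusted p under 0.05, and among 38 replication genes 1 was higher and 2 lower.

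Of the genes called between H2O2 and Blank, Fmod, Slpi and Hmox1 stood near their H2O2 level in H_I. Others did not, such as Ccl5, Hspa1b and Arpc1a, an actin-nucleating complex subunit, with log2 fold changes of H_I over H2O2 of 0.98, -0.60 and 0.30 at an unadjusted p under 0.01, none of them called by edgeR. Both contrasts share the H2O2 libraries, so a deviation of those libraries alone would also place H_I nearer to Blank. Fmod, a collagen-binding proteoglycan, had 196, 293 and 278 CPM in H_I, against 286, 285 and 214 CPM in H2O2, with 610, 634 and 939 CPM in Blank. Slpi, a secreted protease inhibitor, had 23.1, 22.9 and 18.6 CPM in H_I, against 21.9, 16.6 and 23.5 CPM in H2O2, with 7.78, 6.59 and 5.71 CPM in Blank. Hmox1, heme oxygenase, a classical peroxide-inducible gene, had 216, 203 and 178 CPM in H_I, against 224, 223 and 214 CPM in H2O2, with 126, 137 and 135 CPM in Blank. The log2 fold changes of H_I over H2O2 were -0.03 for Fmod, 0.06 for Slpi and -0.14 for Hmox1, with 95% intervals of -0.39 to 0.33, -0.36 to 0.48 and -0.36 to 0.07. Fmod and Slpi were chosen after their values were seen.

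By edgeR and DESeq2 no ligand for NK cells among those found in the data was called over the 6 libraries. Of 16 activating ligands listed, 11 were found and 7 had enough counts to be tested by edgeR. Raet1a, Raet1b, Raet1c and H60a were among those not found by symbol, so nothing is known of them here. Of the 7 tested, 0 had an unadjusted p under 0.05, and their median was -0.06. Pvr, the ligand of the activating receptor DNAM-1, had 75.4, 70.9 and 61.4 CPM in H_I, against 64.0, 66.5 and 75.9 CPM in H2O2, a log2 fold change of 0.01 with a 95% interval of -0.21 to 0.23. Ulbp1, a ligand of NKG2D, had 27.4, 28.1 and 29.4 CPM in H_I, against 28.3, 33.6 and 26.6 CPM in H2O2 (-0.06, interval -0.62 to 0.49). Raet1e, also an NKG2D ligand, had 26.3, 25.5 and 25.2 CPM in H_I, against 31.5, 28.4 and 32.3 CPM in H2O2, without overlap, at a log2 fold change of -0.26 (-0.53 to 0.01). Genes of the NKG2D ligand family are close copies, and the labels do not say how reads shared between them were counted, so these values are uncertain. For Pvr and Raet1e a 2-fold change in either direction lies outside the interval. Of 12 inhibitory ligands tested, 2 were higher at an unadjusted p under 0.05 (background 4.34%) and 0 lower, both with and without the pair of libraries, and the median was 0.42, and 0.10 without the pair. They were Ceacam1, which is also on the colon list, and Cdh1, the epithelial E-cadherin. Cdh1 had 23.02, 6.54 and 9.99 CPM in H_I, against 1.90, 2.23 and 7.61 CPM in H2O2, so the groups overlapped and H_I replicate 1 was the highest. Its log2 fold change was 1.76 (edgeR adjusted p 0.38, DESeq2 adjusted p 0.0908), and 1.98 without the pair (0.447 and 0.0615). edgeR called it when Blank replicate 4 and B_I replicate 3 were left out as well (1.97, adjusted p 0.00836). Whether RNA of other tissues contributed to the values of these ligands was not tested.

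MHC class I, whose loss exposes a cell to NK cells, was also close between groups. H2-K1, a class I heavy chain, had 338, 336 and 349 CPM in H_I, against 306, 288 and 360.1 CPM in H2O2 (log2 fold change 0.10, interval -0.10 to 0.30). B2m, its light chain, had 1432, 1294 and 1263 CPM in H_I, against 1444, 1421 and 1630 CPM in H2O2 (-0.17, interval -0.40 to 0.06). Of 20 class I presentation genes 1 was higher (Erap1) and 1 lower (Psme1) at an unadjusted p under 0.05, and 0 without the pair of libraries. Ccl5, a chemokine that draws NK and T cells (chromosome 11, 83416604 to 83421344), had 2.29, 1.54 and 1.89 CPM in H_I, against 0.987, 0.744 and 1.17 CPM in H2O2, without overlap. These levels rest on 31, 25 and 28 counts in H_I and 14, 12 and 15 counts in H2O2. The log2 fold change was 0.98 (95% interval 0.31 to 1.66, unadjusted p 0.00625, edgeR adjusted p 0.458), and 0.97 without the pair of libraries. Blank held 6.66, 8.32 and 10.7 CPM, so both peroxide groups lay well below untreated cells. Ccl2, a monocyte chemokine, stood at -0.08 with an interval of -1.13 to 0.98, too wide to bound its change.

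**Figure D4:**
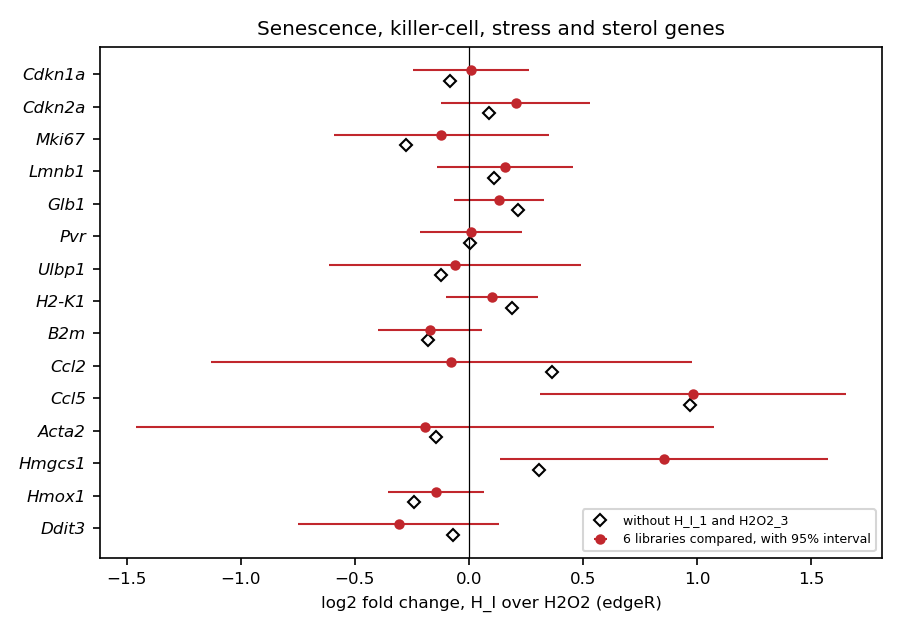
Log2 fold change of H_I over H2O2 (edgeR) for 15 senescence, NK-cell, stress and sterol genes, with 95% intervals (filled points) and the value without H_I replicate 1 and H2O2 replicate 3 (open diamonds). The intervals of Cdkn1a (-0.25 to 0.26) and Pvr (-0.21 to 0.23) are narrow around 0, that of Acta2 is wide, and those of Ccl5 and Hmgcs1 lie above 0 before adjustment. The spread behind the intervals is estimated over all 18 libraries, and Blank replicate 4 and B_I replicate 3 stood apart in Acta2.

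In the integrated stress response the lower values of H_I went with a high H2O2 replicate 3. Of 31 genes of this programme, which ATF4 runs when protein synthesis is restrained, 5 were lower at an unadjusted p under 0.05 and 0 higher (background 2.5% lower, 4.34% higher), and the median was -0.12. The 5 were Atf4 itself, its targets Trib3, Nupr1 and Slc3a2, and Ppp1r15a, which restores translation, and H2O2 replicate 3 was the highest of the 6 libraries in each of them. Nupr1, a stress-inducible nuclear protein, had 19.1, 18.6 and 14.8 CPM in H_I, against 24.8, 18.2 and 78.8 CPM in H2O2. Its log2 fold change of -1.21 (edgeR adjusted p 0.445) was -0.37 without the pair of libraries. Atf4 had 297, 338 and 373 CPM in H_I, against 385, 345 and 518 CPM in H2O2, a log2 fold change of -0.31 that was -0.05 without the pair of libraries. Without those libraries 0 of 31 genes of the list had an unadjusted p under 0.05. Ddit3, the death-promoting factor CHOP, stood at -0.31 (interval -0.75 to 0.13).

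Of 22 heat shock genes tested, 3 (Hspa1b, Dnajb1 and Bag3) were lower at an unadjusted p under 0.05 (background 2.5%) and 0 higher. The same 3 genes were lower at that level without the pair of libraries (background 1.21%). Hspa1b, an inducible HSP70, had 23.8, 18.1 and 17.0 CPM in H_I, against 24.5, 24.9 and 39.8 CPM in H2O2, with Blank at 11.8, 14.1 and 19.8 CPM. Dnajb1, an HSP40 partner, had 146, 119 and 155 CPM in H_I, against 190.2, 157 and 207 CPM in H2O2. Both genes had H_I below H2O2 in every library, by -0.60 and -0.40 on the log2 scale, and by -0.50 and -0.36 without the pair of libraries, with edgeR adjusted p of 0.502 and 0.453. Bag3, an HSP70 cochaperone, stood at -0.26.

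Of 30 immediate early genes, which respond within minutes to growth factors and stress, 5 were lower at an unadjusted p under 0.05 (Btg1, Egr1, Zfp36, Jun and Junb; background 2.5%) and 0 higher, with 0 in either direction without the pair of libraries. H2O2 replicate 3 was again the highest of the 6 libraries in all 5. The list's median was -0.18, and 0.00 without that pair. Egr1, a zinc finger factor (chromosome 18, 34992876 to 34998037), had 192, 208 and 202 CPM in H_I, against 265, 233 and 277 CPM in H2O2, and 316, 312 and 262 CPM in Blank. H_I lay below both other groups, at a log2 fold change of -0.36 from H2O2 (95% interval -0.61 to -0.12, edgeR adjusted p 0.453), and -0.29 without the pair of libraries.

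Replication-dependent histone genes, whose messages normally lack a polyA tail and which are therefore poorly sampled by a poly-T capture, had the lowest median of the lists. Of 22 tested, 21 stood lower in H_I and 6 (H1f1, H1f4, H1f5, H4c3, H4c4 and H2bc3) had an unadjusted p under 0.05, with a median of -1.02. Over all genes 6187 of 13375 stood lower, and 2.5% of the 13375 were lower at an unadjusted p under 0.05. The histone median was -0.42 without the pair of libraries, with 5 genes at an unadjusted p under 0.05 (background 1.21%). H1f4, a linker histone, had 0.812, 0.432 and 0.540 CPM in H_I, against 2.47, 2.67 and 5.98 CPM in H2O2, and 1.43, 4.31 and 2.56 CPM in Blank. Those values rest on 11, 7 and 8 counts in H_I and 35, 43 and 77 counts in H2O2. DESeq2 called H1f4 (log2 fold change -2.65, adjusted p 0.0427), whereas edgeR did not (adjusted p 0.288). The DESeq2 call was lost without the pair of libraries (-2.43, adjusted p 0.489). Levels between libraries ranged widely for H1f4, with 0.770 to 8.39 CPM among the B_I libraries.

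Of 27 sterol synthesis and uptake genes, 2 were higher at an unadjusted p under 0.05 (Acat2 and Hmgcs1) and 1 lower (Scap; background 4.34% higher, 2.5% lower), and the median was 0.12, with 0 higher and 1 lower without the pair of libraries. Hmgcs1, the HMG-CoA synthase of cholesterol synthesis, had 20.9, 11.97 and 13.0 CPM in H_I, against 9.45, 10.5 and 5.28 CPM in H2O2. Its log2 fold change of 0.85 (edgeR adjusted p 0.625) was 0.31 without the pair of libraries. Of 50 lysosome genes, 2 were higher (background 4.34%) and 1 lower (background 2.5%), and without the pair of libraries 4 were higher (background 2.92%) and 0 lower. Of 34 autophagy genes 0 were higher and 3 lower (Atg4b, Ulk1 and Gabarapl1), and 1 was lower without the pair of libraries (background 1.21%). Among 33 NRF2 and antioxidant genes Osgin1 was the only gene with an unadjusted p under 0.05.

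Of 45 interferon-stimulated genes tested, 7 were higher (Trim25, Ifih1, Gbp3, Herc6, Trim30a, Ifit2 and Samd9l) and 1 lower (Eif2ak2) at an unadjusted p under 0.05 (background 4.34% higher, 2.5% lower), with a median of 0.36. Without the pair of libraries 2 were higher and 1 lower (background 2.92% and 1.21%), and the median was 0.16, and without H_I replicate 1 alone 0 were higher. Ifit2, an inhibitor of viral translation, had 7.45, 6.599 and 5.67 CPM in H_I, against 4.09, 4.34 and 2.097 CPM in H2O2 and 8.72, 8.38 and 4.06 CPM in Blank. Ifih1, the RNA sensor MDA5, had 5.75, 3.21 and 4.25 CPM in H_I, against 1.76, 1.12 and 3.03 CPM in H2O2. The members that differed were at low levels, and immune cells and gut tissue express them too. Whether RNA of other tissues contributed to the values of this list was not tested.

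Each of the remaining lists held at most 2 genes in either direction at an unadjusted p under 0.05 (background 4.34% higher, 2.5% lower). Among 37 collagens and matrix genes 1 was higher and 2 lower (Emilin1 and Bgn), among 34 secretory factors of senescence 2 were higher and 1 lower, and among 24 NF-kB genes 1 was higher, Nfkbiz. Bgn, the matrix proteoglycan biglycan, had 2019, 2353 and 2206 CPM in H_I, against 2675, 2416 and 2969 CPM in H2O2, a log2 fold change of -0.29 (edgeR adjusted p 0.723). Among 22 BCL2 family genes and caspases 1 was lower, Bbc3, and among 31 glycolysis and hypoxia genes none reached that level.

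**Figure D5:**
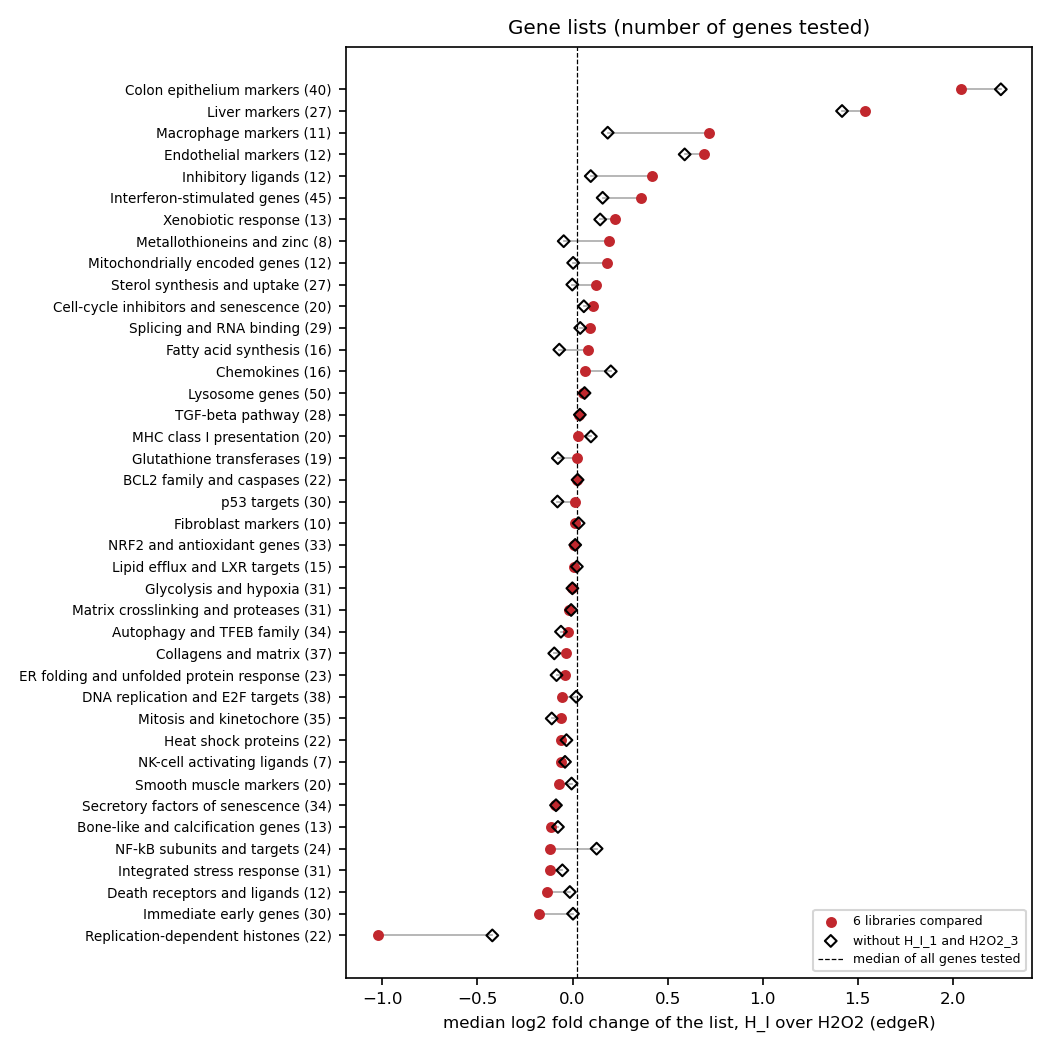
Median log2 fold change of H_I over H2O2 (edgeR) for each gene list with at least 5 genes tested (number in brackets), over the 6 libraries (filled) and without H_I replicate 1 and H2O2 replicate 3 (open diamonds), with the median of all genes as a dashed line at 0.02. Colon (2.04) and liver (1.54) markers lie far to the right, histone genes at -1.02 to the left, and most other lists near the dashed line.

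Isoliensinine was also added to doxorubicin-treated and to untreated cells, and those differences share no library with H_I minus H2O2. By edgeR, 0 of 13375 genes were called in D_I against Dox (556 at an unadjusted p under 0.05, 4.16%) and 0 in B_I against Blank (640, 4.79%). The difference of H_I minus H2O2 from D_I minus Dox gave 0 called genes by edgeR, with 1054 (7.88%) at an unadjusted p under 0.05, and 4 of 11764 by DESeq2 (0.034%), 1 higher (0.0085%) and 3 lower (0.0255%). The 4 were Egr1, Junb, Mef2d and Adk. Egr1 stood lower with isoliensinine on peroxide (-0.36) and higher on doxorubicin, with 286, 297 and 351 CPM in D_I, against 195, 220.4 and 215 CPM in Dox (0.57). The difference between those log2 fold changes was -0.93 by edgeR (adjusted p 0.22) and -0.95 by DESeq2 (adjusted p 0.00153). Junb had 95.9, 96.3 and 102.7 CPM in H_I, against 119.5, 100.7 and 144 CPM in H2O2, while D_I held 108, 118 and 134 CPM and Dox 82.7, 94.3 and 79.9 CPM (difference -0.80 by DESeq2, adjusted p 0.0343). For Mef2d the values were -0.42 on peroxide and 0.22 on doxorubicin, with a difference of -0.66 by DESeq2 (adjusted p 0.0166). Adk, adenosine kinase, stood at 0.21 on peroxide and -0.59 on doxorubicin, with a difference of 0.78 by DESeq2 (adjusted p 0.0343). Without the pair of libraries DESeq2 still called the difference of Egr1 (-0.88, adjusted p 0.0335) but not those of Junb, Mef2d and Adk (adjusted p 0.233, 0.0994 and 0.0994).

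Against untreated cells the difference of differences gave 0 genes by edgeR, with 813 (6.08%) at an unadjusted p under 0.05, and 2 of 17958 by DESeq2 (0.0111%), Phlda1 and Sash1. Phlda1 stood 0.58 higher with isoliensinine on peroxide and 0.55 lower on untreated cells (log2 fold change -0.55), where B_I had 8.15, 8.52 and 8.02 CPM, against 11.6, 12.3 and 12.2 CPM in Blank. The difference was 1.10 by DESeq2 (adjusted p 0.0263) and 1.12 by edgeR (adjusted p 0.648). Sash1, a scaffold protein of endothelial and epithelial cells, had 8.71, 7.28 and 6.07 CPM in H_I, against 2.75, 2.85 and 3.03 CPM in H2O2, with a difference of 2.07 from untreated cells by DESeq2 (adjusted p 0.0263). Neither call held without the pair of libraries (DESeq2 adjusted p 0.0748 for Phlda1 and 0.0794 for Sash1). Osgin1 stood at -0.83 on peroxide, 0.39 on doxorubicin and -0.20 on untreated cells, and neither difference was called by edgeR (adjusted p 0.483 and 0.779). Ccl5 stood at 0.98 on peroxide, -0.92 on doxorubicin and -0.05 on untreated cells, likewise with no called difference (adjusted p 0.483 and 0.765).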

How the data were processed

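Per the labels' protocols, polyA RNA was captured with poly-T beads and made into randomly primed, PCR-amplified cDNA libraries, with the strand setting not stated. The submitters' processing notes name fastp 0.22.0, HISAT2 2.1.0 and HTSeq 0.9.1. No source used here names the genome build, so coordinates stand as deposited. The authors deposited a raw read count for each gene in each library, with their FPKM values beside it. The submitters describe the replicates as biological.

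In R 4.3.3, counts of the 18 libraries were filtered by edgeR 4.0.16's expression filter, scaled by TMM and fitted with a mean per group by the robust quasi-likelihood method. Calls need an adjusted p (Benjamini-Hochberg) under 0.05. SE is the absolute log2 fold change over the square root of F, and intervals cover 95%. Alternatives were DESeq2 1.42.0, limma 3.58.1 on log2(FPKM + 1) and log2(FPKM + 0.1), other scalings and filters, left-out libraries and a replicate block. The edgeR steps were tested on simulated data. Named genes were 15 chosen genes (1 more is not reported here), up to 4 called members of each list each way, and the 10 largest called changes each way among genes off the colon and liver lists, with groups that did not overlap, 5 FPKM or more in the group that stood higher, the same sign without H_I1 and H2O23, and H_I1 below 2 times the mean of the other H_I libraries. Since edgeR called none, genes were named at an unadjusted p under 0.01, or 0.05 within lists, after the values were seen. The members and the 41 gene lists were chosen with earlier results of these data known.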

Additional observations from a re-analysis of the deposited data

How the results depend on the processing

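The 0 genes called by edgeR in H_I against H2O2 became 67 with DESeq2, 5 with replicate number as a block (Hnf4a, Plac8, Reg3g, Lyz2 and Reg3b), and 17 without Blank replicate 4 and B_I replicate 3. Chosen after seeing the data, leaving out those libraries together with H_I replicate 1 and H2O2 replicate 3 gave 58, and DESeq2 without H_I replicate 1 and H2O2 replicate 3 gave 21. Leaving out one replicate each gave 0 to 10, the 10 arising without H2O2 replicate 3. The count stayed at 0 with limma, DESeq2 size factors, upper-quartile scaling, either filter, the 6 libraries alone, the colon level as a covariate, and without colon and liver genes in the adjustment. Osgin1 and Polr2j were called without Blank replicate 4 and B_I replicate 3, at -0.82 and -0.54, with adjusted p of 0.0487 each. With H_I replicate 1 and H2O2 replicate 3 also left out, edgeR called both, at -0.62 and -0.63 (adjusted p 0.00562 and 0.00293). Genes at an unadjusted p under 0.05 numbered 915, against 549 with a filter of 5 CPM, 559 without H_I replicate 1 and H2O2 replicate 3, 1564 without Blank replicate 4 and B_I replicate 3, and 585 to 1413 with one replicate left out (1413 without H2O2 replicate 2, 585 without H_I replicate 1). For the difference from doxorubicin the count was 4 with DESeq2, 9 with DESeq2 without H_I replicate 1 and H2O2 replicate 3, and 1 (Egr1) with no filter, with the replicate block and without Blank replicate 4 and B_I replicate 3. For the difference from untreated cells it was 2 with DESeq2, and 9 with DESeq2 without that pair. The causes were not tested.

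Same-numbered libraries correlated at -0.149, 0.0797 and -0.152 in their deviations from the group means, so these values showed no pairing by number. With 3 libraries per group such deviations depend on each other, so whether the numbers mark a shared batch cannot be decided. H_I replicate 1 correlated best with H2O2 replicate 3 (0.217).

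Of 713 log2 fold changes of 34 named genes over 21 settings, 684 kept direction and side of the threshold, 5 became called and 24, of 5 genes, changed sign. Ccl2 turned to 0.0799 and 0.122 with limma, 0.0908 with the replicate block, 0.363 without H_I replicate 1 and H2O2 replicate 3 (0.356 by DESeq2), 0.358 without 4 libraries, and ran from -0.347 to 0.651 with one replicate out. Cdkn1a turned to -0.0814 without that pair (-0.0899 by DESeq2), -0.0874 without 4 libraries, -0.0421 with the covariate, and ran from -0.0474 to 0.0525 with one replicate out. Pvr turned to -0.051 with the covariate, -0.000291 without 4 libraries, -0.00266 by DESeq2 without the pair, and ran from -0.0511 to 0.09 with one replicate out. Ulbp1 ran from -0.131 to 0.0444 with one replicate out, and Acta2 turned to 0.583 with the covariate.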
